A study of Mus musculus with 12 samples.

Results

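The mu class glutathione S-transferases are cytosolic enzymes that join glutathione to electrophilic compounds. The 7 mouse genes Gstm1 to Gstm7 were followed, each through the probe sets whose annotation names it as the only gene. A probe set is a group of short probes on the array that reads 1 transcript or several. All 7 genes were measured, by 12 of the 34945 single-gene probe sets, and the main probe set of a gene was that with the highest mean over the arrays. With 1 probe set per gene they were 7 of 18193 genes tested. Gstm1 had 4 probe sets, Gstm3 and Gstm7 had 2 each, and Gstm2, Gstm4, Gstm5 and Gstm6 had 1 each.

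RNA from livers of male mice was read on 12 single-colour arrays in 4 groups of 3. The groups were wild type with vehicle, wild type with CDDO-Im, Nrf2 null with vehicle and Nrf2 null with CDDO-Im. CDDO-Im, a synthetic triterpenoid, was given by gavage at 30 uM/kg as the labels write it, and livers were compared at 6 hours. Vehicle mice are labelled with a dose of 0 by the same route and at the same time. The labels call the genotype a knockout, and the form of the Nrf2 allele, the strain and the age are not given in the sources used here. Nothing in them ties an array to its own animal, so the p-values reflect only how far these samples spread, which may be technical. All 6 vehicle titles, and no others, end in a bracketed digit of unstated meaning, and its meaning and the compound cannot be told apart.

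Glutathione S-transferases make reactive compounds more soluble and ready for export by coupling them to glutathione, which the liver makes in quantity. Nrf2, the transcription factor encoded by Nfe2l2, is held in check by Keap1 and, when released by electrophiles, switches on genes of glutathione synthesis and conjugation through antioxidant response elements. Mu class enzymes work as dimers, and their genes lie side by side in the genome as close relatives, so a probe set of 1 gene can pick up RNA of another. Probe sets ending in _x_at or _s_at are those whose probes the array maker marks as prone to that, and values of such probe sets cannot be assigned to 1 gene with certainty. The main probe sets of Gstm1 and Gstm3 are of this kind, and so is another probe set of Gstm1. In the annotation the genes follow each other on chromosome 3 in the order Gstm5, Gstm7, Gstm6, Gstm3, Gstm2, Gstm1 and Gstm4, with no other measured gene between them. Gstm5 lies on the plus strand and the other 6 on the minus strand.

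The 250 bases before a start site are shown for 3 genes whose level rose with CDDO-Im in wild type livers and for Gstm5, whose level did not pass the test, so that letters around the starts can be set against the responses below. Sequences are from RefSeq, build GRCm38.p6, 5′ to 3′ on the strand of the gene. Capitals mark matches on either strand to 4 patterns, namely TGACNNNGC, the core of the antioxidant response element, TGACTCA, the AP-1 motif, GGGCGG, the GC box, and TATAAA, the TATA box. The first 2 patterns share their first 4 letters and can overlap. The Gstm4 window is chr3:108044860-108045109, minus strand, the Gstm3 window chr3:107969175-107969424, minus strand, the Gstm1 window chr3:108017819-108018068, minus strand, and the Gstm5 window chr3:107895604-107895853, plus strand.
Gstm4: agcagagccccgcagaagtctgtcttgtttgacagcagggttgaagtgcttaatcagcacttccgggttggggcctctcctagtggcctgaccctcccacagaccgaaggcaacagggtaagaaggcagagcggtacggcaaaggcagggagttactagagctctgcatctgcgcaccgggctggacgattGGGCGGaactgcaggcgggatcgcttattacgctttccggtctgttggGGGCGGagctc
Gstm3: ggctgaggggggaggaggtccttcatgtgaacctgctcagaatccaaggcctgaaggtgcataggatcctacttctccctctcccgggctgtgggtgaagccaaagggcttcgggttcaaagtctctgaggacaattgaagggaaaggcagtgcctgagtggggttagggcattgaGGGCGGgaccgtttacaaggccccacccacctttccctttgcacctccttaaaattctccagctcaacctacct
Gstm1: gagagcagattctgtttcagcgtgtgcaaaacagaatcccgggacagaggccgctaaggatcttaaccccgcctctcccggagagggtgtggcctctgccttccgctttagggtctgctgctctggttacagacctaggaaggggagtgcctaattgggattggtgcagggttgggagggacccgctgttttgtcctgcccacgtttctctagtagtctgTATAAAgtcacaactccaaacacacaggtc
Gstm5: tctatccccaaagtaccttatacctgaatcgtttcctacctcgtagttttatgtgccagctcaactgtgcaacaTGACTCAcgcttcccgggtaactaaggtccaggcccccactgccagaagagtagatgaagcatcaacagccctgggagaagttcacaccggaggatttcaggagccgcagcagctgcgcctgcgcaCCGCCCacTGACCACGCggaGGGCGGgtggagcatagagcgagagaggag

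The 7 genes had 12 such windows, since Gstm1, Gstm4 and Gstm7 have 2 listed starts and Gstm6 has 3. TGACNNNGC was found in 2 of the 12, in the Gstm5 window as TGACCACGC from position -42, and in 1 Gstm7 window as TGACAAAGC from position -129, counted from the start site. The Gstm7 match lies past the other listed Gstm7 start, so it comes before only 1 of the 2 starts. Of all 32851 windows of this length 10.2% held TGACNNNGC. The windows of Gstm1, Gstm2, Gstm3, Gstm4 and Gstm6 held no such run of letters, which says only that it is not in these 250 bases. TGACTCA was found in the Gstm5 window alone among the 7 genes (4.46% of all windows). GGGCGG was found in 5 windows of 4 genes, Gstm3, Gstm4, Gstm5 and Gstm7 (32.7% of all windows), and TATAAA in 1 window each of Gstm1 and Gstm7 (12.4%). Windows of 1 gene can overlap, and the 2 Gstm4 windows hold the same GGGCGG matches. Counted by gene, GGGCGG was found in 4 of 7, beside 35.4% of all genes with such windows, and TGACNNNGC in 2 of 7, beside 11.5%. A match is a description of the letters and not a site of binding.

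The arrays were checked before the family was read. Array medians lay between 5.77 and 5.83 (log2), and each array correlated with its group, across probe sets, at a mean r of 0.986 to 0.994. The lowest was that of wild type vehicle replicate 3, and the next lowest was 0.990. Nfe2l2 read 8.37 to 9.14 on the 6 wild type arrays and 4.44 to 4.96 on the 6 null arrays in its brighter probe set, while the dimmer one read 4.63 to 5.19 on all 12. Of 6 hepatocyte markers 5 were measured, all above the array median on every array, and their summed log2 intensity lay between 16.0 and 16.2 in each group. Transcripts of pancreatic acinar cells stood high on 2 arrays. The summed log2 intensity of the 7 acinar markers measured was 13.7 in wild type vehicle replicate 3 and 12.2 in Nrf2 null vehicle replicate 2, against 9.48 to 10.2 on the other 10 arrays. Summed Kupffer cell markers (6 of 6 measured) ran from 10.96 to 12.5 and were lowest within their groups on the same 2 arrays, at 11.4 and 10.96. Neutrophil markers (4 of 5) ran from 8.44 to 8.79 in null vehicle livers and from 7.95 to 8.26 in the other groups. Erythroid markers (2 of 4), at 8.54 to 9.78, were highest in null livers with CDDO-Im, while stellate and cholangiocyte markers ran over 11.6 to 11.97 and 9.07 to 9.26. Endothelial markers (6 of 6) ran from 10.8 to 11.1 in wild type and 11.4 to 11.5 in null livers with CDDO-Im, without overlap, and from 10.9 to 11.4 and 10.9 to 11.7 with vehicle. By limma 2 of the 6 endothelial markers were called higher with CDDO-Im in wild type and 1 in null livers, and 2 of 4 neutrophil markers were called lower with CDDO-Im in null livers. Between genotypes with CDDO-Im, 1 Kupffer and 1 endothelial marker were called lower in null livers. Over all genes CDDO-Im calls were 0.978% higher in wild type, and 3.58% higher and 2.32% lower in null livers. Between genotypes with CDDO-Im 0.824% of all genes were called lower. The part of these cells in the results was not tested. In bulk liver fewer cells of a type and less RNA per cell cannot be told apart.

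**Figure D1:**
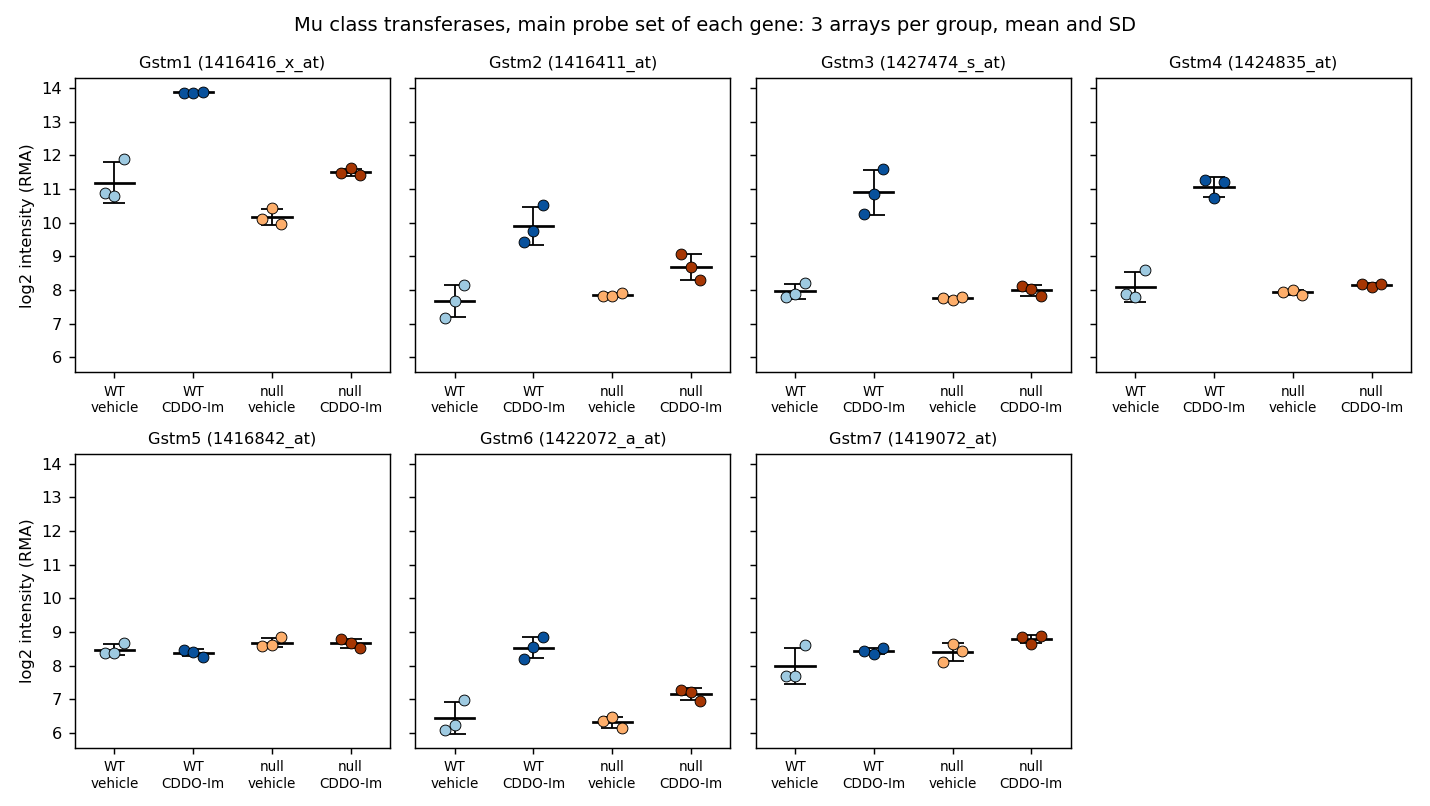
The main probe set of each gene on all 12 arrays, in log2 intensity after RMA, with the mean and SD of each group of 3. Gstm1, Gstm2, Gstm3, Gstm4 and Gstm6 were highest on the 3 wild type CDDO-Im arrays, Gstm5 stayed between 8.27 and 8.86, and wild type vehicle replicate 3 was the highest of its group for all 7 genes.

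Wild type livers show how the family responded to CDDO-Im with Nrf2 in place. Gstm1, Gstm2, Gstm3, Gstm4 and Gstm6 rose between 4.30-fold and 7.84-fold, while Gstm5 and Gstm7 did not pass the test. That is 5 of 7 genes called higher at an adjusted p under 0.05, where 0.978% of all genes were called higher. The median difference over the 7 genes was 2.23 (log2), beside 0.01 over all genes. For the same 5 genes every CDDO-Im array lay above every vehicle array, which held for 8.42% of all genes. In this and the other comparisons the test was limma's moderated test with Benjamini-Hochberg adjustment over all genes, errors of differences are standard errors, and errors of means are SD with n = 3.

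Gstm1, a major mu class enzyme of mouse liver, read 10.90, 10.79 and 11.89 in wild type with vehicle and 13.85, 13.86 and 13.89 with CDDO-Im (log2, replicates 1 to 3). The vehicle arrays differed more among themselves than the CDDO-Im arrays did, with SDs of 0.60 and 0.02. The rise was 2.67 ± 0.23, or 6.38-fold with a 95% interval of 4.52 to 9.01 (adjusted p = 6.72e-05). The other 3 probe sets of Gstm1 gave larger differences of 3.30, 3.02 and 2.88, with adjusted p-values over all probe sets of 1.76e-05, 2.43e-05 and 1.04e-05. The 2 brightest probe sets of Gstm1 read 13.85 to 14.07 on the wild type CDDO-Im arrays, where the highest value of any probe set lay between 14.39 and 14.61 on the 12 arrays.

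Gstm4 gave the largest difference of the family by its main probe set. It read 7.89, 7.79 and 8.60 with vehicle and 11.27, 10.72 and 11.21 with CDDO-Im, so the groups lay more than 2 log2 units apart. The difference was 2.97 ± 0.19, or 7.84-fold with an interval of 5.88 to 10.5 (adjusted p = 6.06e-06).

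Gstm3 read 7.79, 7.89 and 8.21 with vehicle and 10.27, 10.84 and 11.61 with CDDO-Im by its brighter probe set, whose suffix marks possible pick-up of related RNAs. The CDDO-Im arrays spread over more than 1 log2 unit (SD 0.67), all above the vehicle arrays, and the difference was 2.94 ± 0.25, or 7.68-fold (adjusted p = 6.72e-05). Its dimmer probe set, which does not carry that suffix, read 5.70, 5.66 and 6.00 with vehicle, of which 2 lay below the array medians, and 8.47, 8.96 and 9.32 with CDDO-Im. The difference there was 3.13 ± 0.17 (adjusted p over all probe sets = 3.05e-06), with the vehicle values near or below the array medians.

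Gstm2 read 7.18, 7.68 and 8.14 with vehicle and 9.44, 9.75 and 10.51 with CDDO-Im, a difference of 2.23 ± 0.28 or 4.70-fold (adjusted p = 0.00172). Gstm6 read 6.09, 6.24 and 6.98 with vehicle and 8.21, 8.56 and 8.85 with CDDO-Im, a difference of 2.10 ± 0.22 or 4.30-fold (adjusted p = 0.000309). Both genes spread widely within their groups, with SDs between 0.32 and 0.55, and neither pair of groups overlapped. The 95% intervals of the 5 differences overlapped one another, from 1.62 to 2.85 for Gstm2, 1.64 to 2.57 for Gstm6, 2.18 to 3.17 for Gstm1, 2.39 to 3.49 for Gstm3 and 2.56 to 3.39 for Gstm4, and differences between the genes were not tested.

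Gstm5, the member on the opposite strand, read 8.37, 8.38 and 8.66 with vehicle and 8.47, 8.42 and 8.27 with CDDO-Im. The groups overlapped, and the difference was -0.08 with a 95% interval of -0.32 to 0.15 (adjusted p = 0.835), so a rise of more than 1.11-fold lies outside that interval. Gstm7 read 7.70, 7.68 and 8.62 with vehicle and 8.43, 8.34 and 8.53 with CDDO-Im. Its vehicle replicate 3 lay above all 3 CDDO-Im arrays, and the difference was 0.43 with an interval of -0.04 to 0.90 (adjusted p = 0.424). Its second probe set gave 0.05 (interval -0.22 to 0.31). The upper bound for Gstm7, 0.90, lay below the lowest lower bound among the 5 genes that rose, 1.62.

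Wild type vehicle replicate 3 stood above both other vehicle arrays of its genotype in all 12 probe sets. For the main probe sets it was higher than their mean by 1.04 for Gstm1, 0.93 for Gstm7, 0.81 for Gstm6, 0.76 for Gstm4, 0.71 for Gstm2, 0.37 for Gstm3 and 0.28 for Gstm5, beside a median of 0.02 over all genes. It was the highest of the 3 vehicle arrays for 42.9% of all genes. It is also the array with the highest acinar markers, whose part in these values was not tested. Without it Gstm7 rose by 0.74 (adjusted p = 0.00529), so the call for that gene rests on this array, and Gstm1 and Gstm4 rose by 3.02 and 3.22. Over all genes the count called in this comparison was 332 with all arrays and 104 to 1385 with single arrays left out. The 5 genes were called under each of the 20 other settings tried, leaving out any single array included, and their highest adjusted p-values over these were 0.00907 for Gstm1, 0.0386 for Gstm2, 0.0116 for Gstm3, 0.00318 for Gstm4 and 0.0193 for Gstm6.

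**Figure D2:**
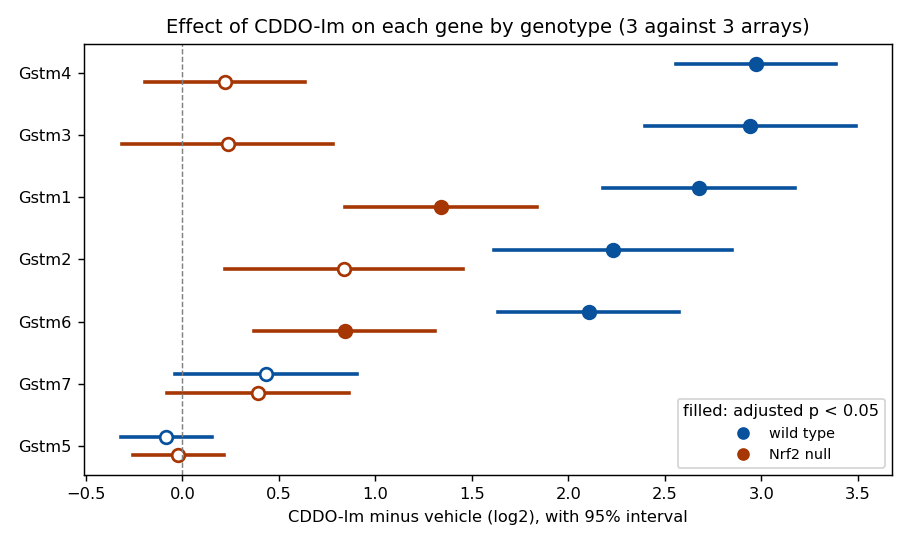
CDDO-Im minus vehicle for each gene's main probe set in wild type and Nrf2 null livers, in log2, as points with 95% intervals from 3 against 3 arrays. Filled points passed at an adjusted p under 0.05, which held for 5 genes in wild type and for Gstm1 and Gstm6 in Nrf2 null livers.

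Null livers show how the family responded to CDDO-Im without Nrf2. Gstm1 rose 2.53-fold and Gstm6 rose 1.79-fold, and the other 5 genes did not pass the test. These 2 of 7 stand beside 3.58% of all genes called higher in this comparison. The median difference over the 7 genes was 0.39, beside 0.00 over all genes. For 5 genes, Gstm1, Gstm2, Gstm3, Gstm4 and Gstm6, every CDDO-Im array lay above every vehicle array, which held for 11.6% of all genes.

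Gstm1 read 10.10, 10.42 and 9.96 in null livers with vehicle and 11.47, 11.62 and 11.40 with CDDO-Im. The groups lay about 1 log2 unit apart at their nearest, and the difference was 1.34 ± 0.23 with an interval of 0.84 to 1.83 (adjusted p = 0.0110). The other 3 probe sets gave 1.37, 0.89 and 0.75, with adjusted p-values over all probe sets of 0.0124, 0.0472 and 0.0501, the last not called. Without Nrf2 null CDDO-Im replicate 3 the main probe set gave an adjusted p of 0.0509.

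Gstm6 read 6.35, 6.46 and 6.15 with vehicle and 7.29, 7.23 and 6.96 with CDDO-Im in null livers, a difference of 0.84 ± 0.22 (interval 0.37 to 1.31, adjusted p = 0.0422). All CDDO-Im arrays were higher, but leaving out any of the 6 null arrays or wild type CDDO-Im replicate 2 ended the call, with adjusted p-values of 0.0592 to 0.126, and so did the replicate number as a block (0.0521). Gstm2 read 7.82, 7.82 and 7.90 with vehicle and 9.06, 8.69 and 8.31 with CDDO-Im, a difference of 0.84 with an interval of 0.22 to 1.45 (adjusted p = 0.112). It did not pass with all arrays in the fit, and it passed when the null arrays were fitted alone (SE 0.17 in place of 0.28, adjusted p = 0.0218).

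Gstm3 and Gstm4, whose main probe sets gave the largest differences among main probe sets in wild type, were not called here. Gstm4 read 7.93, 8.01 and 7.84 with vehicle and 8.17, 8.10 and 8.18 with CDDO-Im, a difference of 0.22 with an interval of -0.20 to 0.63 (adjusted p = 0.611). Gstm3 read 7.76, 7.71 and 7.79 with vehicle and 8.13, 8.02 and 7.81 with CDDO-Im, a difference of 0.23 with an interval of -0.31 to 0.78 (adjusted p = 0.697). The intervals allow a rise of up to 1.55-fold for Gstm4 and 1.72-fold for Gstm3, and the miss does not show that these genes were unaffected.

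Gstm7 read 8.11, 8.65 and 8.43 with vehicle and 8.84, 8.65 and 8.88 with CDDO-Im in null livers, with 1 vehicle array slightly above the lowest CDDO-Im array. The difference was 0.39 (interval -0.08 to 0.86, adjusted p = 0.363). Without both arrays with acinar transcripts it was 0.52 (adjusted p = 0.0212). The second Gstm7 probe set gave -0.02 with all arrays (interval -0.28 to 0.25). Over the 12 arrays its r with the main probe set was 0.19. Gstm5 read 8.59, 8.62 and 8.86 with vehicle and 8.79, 8.67 and 8.53 with CDDO-Im, with overlapping groups and a difference of -0.02 (interval -0.26 to 0.21, adjusted p = 0.948).

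Whether the response depended on Nrf2 was tested as the interaction, the wild type difference minus the null difference. Gstm4 and Gstm3 passed, at 2.75 ± 0.27 (adjusted p = 0.000830) and 2.71 ± 0.35 (adjusted p = 0.00825), so 2 of 7 genes were called where 0.126% of all genes were called higher. The median over the 7 genes was 1.34, beside 0.01 over all genes. Gstm2 gave 1.40, Gstm1 1.34 and Gstm6 1.26, with intervals above 0 but adjusted p-values of 0.375, 0.248 and 0.248. Gstm7 gave 0.04 (interval -0.63 to 0.70) and Gstm5 -0.06 (interval -0.40 to 0.27), with adjusted p-values of 0.993 and 0.973. Gstm3 and Gstm4 were called under each of the 19 other settings.

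The probe set decided the call for Gstm1. Its 2 dimmer probe sets passed, at 2.13 (adjusted p over all probe sets = 0.0223), with the _x_at suffix, and 2.14 (adjusted p = 0.00756), without it. Its second brightest gave 1.93 (adjusted p = 0.0596), and its main probe set, on the same scale, 1.34 (adjusted p = 0.276). The 2 probe sets that missed are those that read 13.85 to 14.07 on the wild type CDDO-Im arrays. In wild type the main probe set rose by 2.67 and the second brightest by 3.30, beside 3.02 and 2.88 for the 2 dimmer ones. In null livers the 2 brightest rose by 1.34 and 1.37, beside 0.89 and 0.75 for the dimmer ones. The part of a ceiling in the smaller interaction differences was not tested. Without wild type vehicle replicate 3 the main probe set of Gstm1 gave an interaction of 1.68 (adjusted p = 0.000491). Gstm6 gave 1.53 (adjusted p = 0.0145), so that 4 of 7 genes were called. Over all genes the interaction count was 25 with all arrays and 15 to 46 with single arrays left out. The dimmer Gstm3 probe set gave 2.93 (adjusted p over all probe sets = 0.000214).

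**Figure D3:**
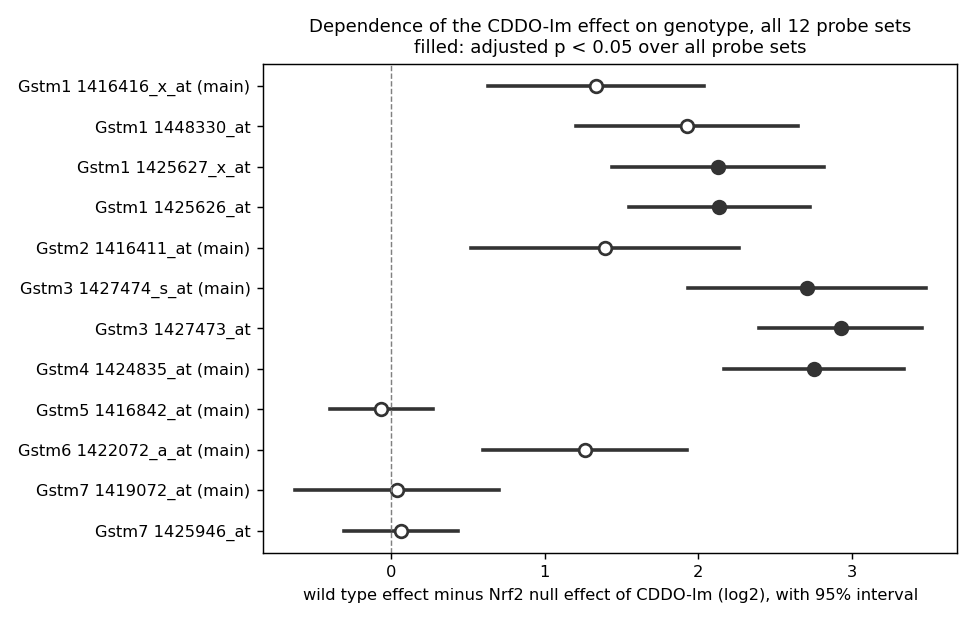
The wild type effect minus the Nrf2 null effect of CDDO-Im for all 12 probe sets, in log2, with 95% intervals from 12 arrays. Filled points, 5 in all, passed at an adjusted p under 0.05 over all probe sets: both Gstm3 probe sets, the Gstm4 probe set and the 2 dimmer Gstm1 probe sets. Of all 34945 single-gene probe sets 0.143% passed this test.

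The genotypes were then compared within each treatment. These comparisons use the same arrays as the effects above, so the values restate them from the other side. With CDDO-Im, null livers had lower levels of 4 of 7 genes (0.824% of all genes were called lower). Null minus wild type was -2.92 ± 0.19 for Gstm4 (adjusted p = 7.14e-06), -2.92 ± 0.25 for Gstm3 (adjusted p = 8.06e-05), -2.37 ± 0.23 for Gstm1 (adjusted p = 0.000197) and -1.38 ± 0.22 for Gstm6 (adjusted p = 0.00672). Gstm2 gave -1.21 ± 0.28, with no overlap of the groups, and did not pass (adjusted p = 0.0632). The groups did not overlap, with null livers lower, for 5 of 7 genes (7.82% of all genes). Gstm2 passed without wild type vehicle replicate 3 (adjusted p = 0.0250) and without wild type CDDO-Im replicate 1 (0.0437). Gstm5 and Gstm7 gave 0.28 and 0.36 (adjusted p = 0.316 and 0.625), each with all null arrays above all wild type arrays, as for 9.01% of all genes.

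With vehicle no member passed (0 of 7 by limma, 1 at an unadjusted p under 0.05, where 0.39% of all genes were called in either direction and 13.2% had such an unadjusted p). Gstm1 read 10.10, 10.42 and 9.96 in null livers against 10.90, 10.79 and 11.89 in wild type, a difference of -1.03 with an interval of -1.53 to -0.53 (adjusted p = 0.0831). The highest null array was lower than the lowest wild type array in each of its 4 probe sets, whose differences ran from -1.03 to -0.66. Of the main probe sets this held for Gstm1 alone (8.49% of all genes). Without wild type vehicle replicate 3, the highest of the group, the difference was smaller, -0.68, and passed (adjusted p = 0.0229). That of Gstm7 by its main probe set, 0.71, also passed (adjusted p = 0.0320). The second Gstm7 probe set gave 0.07 with all arrays (interval -0.20 to 0.33). Over all genes the count called was 71 with all arrays and 19 to 219 with single arrays left out. The differences of Gstm2, Gstm3, Gstm4, Gstm5 and Gstm6 with all arrays lay between -0.21 and 0.22.

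Set in order by mean level, the groups fell into a few patterns. Gstm3 and Gstm4 read highest in wild type with CDDO-Im, at 10.90 and 11.07, and 7.75 to 8.15 in the other 3 groups, whose neighbours in that order did not pass the test against each other where a comparison exists. Gstm1 read 13.87 ± 0.02 in wild type with CDDO-Im, then 11.50 ± 0.11 in null with CDDO-Im, 11.19 ± 0.60 in wild type with vehicle and 10.16 ± 0.24 in null with vehicle. The middle 2 of these groups overlapped in their arrays, and no comparison of the design sets them against each other. Gstm2 and Gstm6 had the order wild type with CDDO-Im, null with CDDO-Im and then the vehicle groups, which overlapped. Gstm5 group means ran from 8.39 in wild type with CDDO-Im to 8.69 in null with vehicle, and those of Gstm7 from 8.002 in wild type with vehicle to 8.79 in null with CDDO-Im, and no neighbours in these orders passed a test where a comparison exists.

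Along the chromosome the 5 genes that rose in wild type stood next to each other, from Gstm6 to Gstm4, and the 2 that did not pass stood at the other end of the cluster. Of the 20 nearest measured genes, 10 on each side, none passed in wild type by limma (0 of 20, with 2 higher and 1 lower at an unadjusted p under 0.05), and their differences ran from -0.85 to 0.34. Without wild type vehicle replicate 3, 1 of the 20 was called higher and 1 lower. Of all 18193 genes 332 were called in this comparison with all arrays, and 104 to 1385 with single arrays left out. In null livers Ahcyl1 rose by 0.44 (adjusted p = 0.0276) and Gnat2 fell by 1.02 (adjusted p = 0.0264), and the other 18 did not pass. That is 1 of 20 each way, where 3.58% of all genes were called higher and 2.32% lower. The call of Ahcyl1 ended without any null array but vehicle replicate 3, and that of Gnat2 without any but CDDO-Im replicate 1. Neither the adenosylhomocysteinase-like gene Ahcyl1 nor Gnat2, a transducin subunit of cone cells, passed in wild type, at 0.27 and -0.85 (adjusted p = 0.227 and 0.0932).

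**Figure D4:**
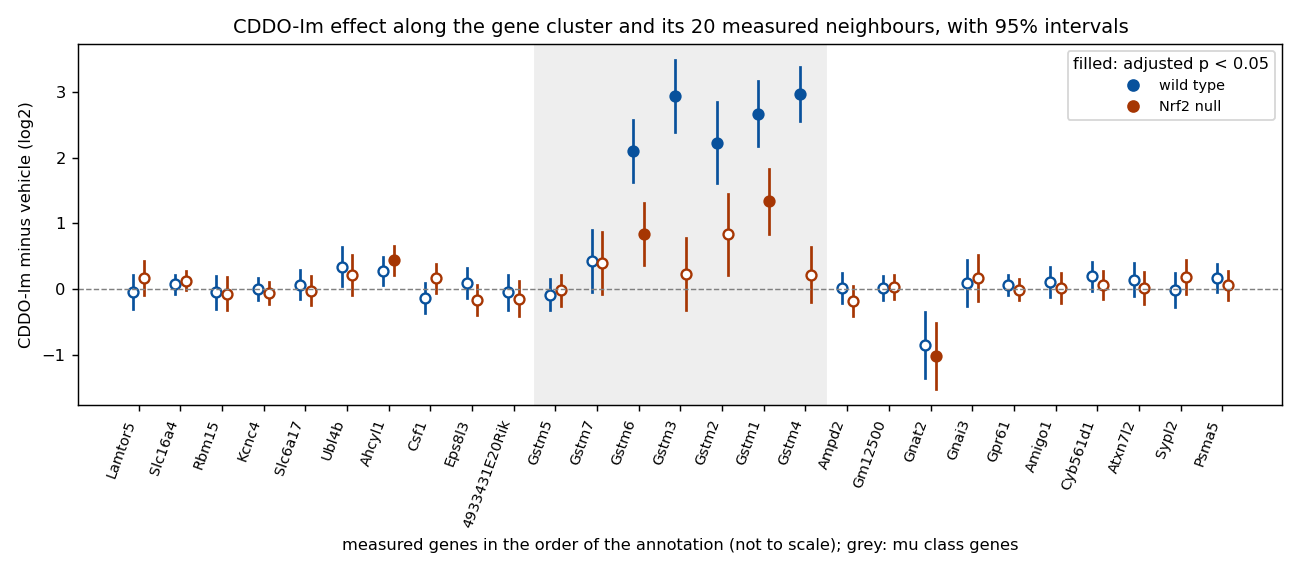
CDDO-Im minus vehicle, in log2 with 95% intervals, for the 7 mu class genes (grey band) and the 20 nearest measured genes in the order of the annotation, not to scale. In wild type the 5 filled points lie from Gstm6 to Gstm4, and the neighbours lie between -0.85 and 0.34.

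The genes whose pattern was most like that of each member were found by Pearson's r over the 12 arrays, as a description, since all share the same 4 groups. For Gstm1 they were Aox1 (r = 0.989), Ugdh (0.982) and Ephx1 (0.978), for Gstm3 Ces1g (0.980), 9130409I23Rik (0.979) and Nqo1 (0.975), and for Gstm4 Cbr3 (0.986), Gsr (0.983) and Meig1 (0.982). Gstm2 stood nearest to A530047J11Rik (0.945), Cyp1a2 (0.942) and Gsta2 (0.942), and Gstm6 to Fth1 (0.977), Gsta2 (0.977) and Creg1 (0.975). The genes nearest to Gstm3 and Gstm4 had interaction differences of 0.72 to 3.95, of which that of Meig1 did not pass (adjusted p = 0.142). Of those nearest to Gstm1, Gstm2 and Gstm6, Ugdh passed the interaction test (2.17, adjusted p = 0.0238) and the others did not. All these genes were picked for likeness on the same 12 arrays, so their calls are not separate evidence. The nearest to Gstm5 were Trmt10b (0.908), Serpina1b (0.879) and Pglyrp2 (0.873), and to Gstm7 Fdft1 (0.946), Dcxr (0.942) and Acot7 (0.929), and none of these 6 passed in either genotype. Within the family Gstm1 had r = 0.946 with Gstm4, 0.957 with Gstm6, 0.925 with Gstm3 and 0.879 with Gstm2, against 0.207 with Gstm7 and -0.52 with Gstm5.

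Other classes of glutathione transferase moved with the mu class in part. Of 17 measured genes of other classes 6 rose in wild type, where 0.978% of all genes were called higher. The median difference over the 17 was 0.22, beside 0.01 over all genes. Among the 6 were the alpha class genes Gsta2 (6.02, adjusted p = 1.11e-05) and Gsta4 (2.87, adjusted p = 0.000171), the pi class gene Gstp1 (1.18) and the microsomal gene Mgst3 (1.29). With single arrays left out the count ran from 3 to 7, and was 3 without wild type vehicle replicate 1 or 2 or wild type CDDO-Im replicate 1 or 2. In null livers 6 of the 17 rose, where 3.58% of all genes were called higher. The median was 0.55, beside -0.005 over all genes, and the 6 included Gsta2 (3.31) and Gsta4 (1.27). With single arrays left out this count ran from 2 to 9. It was 3 without null vehicle replicate 1 or null CDDO-Im replicate 2 and 2 without null CDDO-Im replicate 3. None of the 17 passed the interaction test by limma (2 at an unadjusted p under 0.05), and 3 did without wild type vehicle replicate 3. Gsta2 gave 2.71 there (adjusted p = 0.179), as large a difference as those of Gstm3 and Gstm4, which passed.

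Genes that supply glutathione and carry off its conjugates rose in 6 of 14 cases in wild type (median 0.26), and in 1 of 14, Gclc, in null livers (median 0.13). Over all genes 0.978% were called higher in wild type and 3.58% in null livers. Gsr, which recycles oxidised glutathione, rose by 1.96 in wild type and differed by 0.17 in null livers, with an interaction of 1.80 (adjusted p = 0.000122). It was 1 of 14 called in that test, where 0.126% of all genes were called higher. The count was 2 without wild type vehicle replicate 3 or with renewed quantile normalization, and 3 with array weights or the replicate block. Gclc, the catalytic subunit of the first enzyme of glutathione synthesis, rose by 2.97 and by 1.23 (adjusted p = 0.0171), the latter call ending without null vehicle replicate 1 or 2 or null CDDO-Im replicate 2 or 3. Gclm and the efflux pump Abcc3 rose by 0.94 and 2.98 in wild type. Of 10 genes that control or mark Nrf2 activity 5 rose in wild type, Srxn1, Nqo1 and Txnrd1 among them (2.19, 2.07 and 1.21), with Mafg at 0.58, and 3 without any of wild type vehicle replicates 1 or 2 or wild type CDDO-Im replicates 1 or 2. None of the 10 rose in null livers by limma (1 at an unadjusted p under 0.05, and 1 called without wild type vehicle replicate 3, null vehicle replicate 3 or null CDDO-Im replicate 1), and Srxn1 alone fell, by 0.62 (2.32% of all genes were called lower).

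Receptors that answer to foreign compounds and lipids, with marker targets, were read because they also act on transferase genes. Of 11 such genes none passed in wild type by limma (3 at an unadjusted p under 0.05, and 1 called without wild type vehicle replicate 3), with Nr1i3, the receptor CAR, at 0.73 (adjusted p = 0.0589), Cyp1a1 at 0.45, Ahr at 0.45 and Cyp3a11 at 0.67. In null livers 3 of the 11 rose, where 3.58% of all genes were called higher. These were Nr1i3, by 0.77 (adjusted p = 0.0264), Ppara, by 1.22 (adjusted p = 0.0106), and Cebpa, by 0.59 (adjusted p = 0.0405). With vehicle Ppara read 9.52 in null livers, lower than 10.65 in wild type (adjusted p = 0.0414), and it read 10.74 in null livers with CDDO-Im. The vehicle call of Ppara ended in some other settings, such as without null vehicle replicate 1 or 2. The count of the 11 called higher in null livers was 5 without wild type vehicle replicate 3. It was 1 without null vehicle replicate 1 or null CDDO-Im replicate 2 and 0 without null CDDO-Im replicate 3. Cyp1a2, named above for its likeness to Gstm2, is not among the 11. By limma it rose by 2.40 in wild type (adjusted p = 1.18e-05) and by 1.28 in null livers (adjusted p = 0.00499). The part of these receptors in the responses was not tested.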

How the data were processed

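Liver RNA was read on 12 single-colour Affymetrix arrays. The authors deposited a log2 intensity for every probe set and array after RMA (background correction, quantile normalization and probe summary), a step named in the submitters' processing notes with no version. These values were used as deposited, and the number of arrays limits the precision. Of 45101 probe sets, 64 controls, 932 with several genes and 9160 with none were left out, leaving 34945. Symbols were checked by Entrez Gene id against GRCm38.p6 (34741 matched, 0 changed). The probe set with the highest mean stood for a gene, giving 18193 genes.

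The 4 group means were estimated from all 12 arrays together (limma 3.58.1, R 4.3.3, with 8 residual and 3.81 prior degrees of freedom). The 5 comparisons were adjusted by Benjamini-Hochberg over all genes, or over all single-gene probe sets for further probe sets, at 0.05. The code was tested on simulated data. Members, lists, markers and alternatives were chosen with earlier results of these data known. Named were all members, the 3 genes most correlated with each, Nfe2l2 and the 4 genes of each list with the smallest adjusted p in wild type. Ppara and Cebpa were named after their values were seen. Alternatives left out each array or both arrays with acinar transcripts, or used array weights, a replicate block, the compared arrays alone, renewed quantile normalization, no dim genes, every probe set or a threshold of 0.01.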

Additional observations from a re-analysis of the deposited data

Results flagged for a closer look

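The effect of CDDO-Im differed between the genotypes by a test of the difference itself for 2 genes of the family. The wild type effect minus the Nrf2 null effect was 2.71 (log2) for Gstm3 and 2.75 for Gstm4. The dimmer Gstm3 probe set gave 2.93. For Gstm1 the main probe set did not pass, while its 2 dimmer probe sets gave 2.14 and 2.13 and passed over all probe sets. The probe set that gave 2.13 carries the _x_at suffix. Groups of 3 arrays were not tested for outlying samples.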

How the results depend on the processing

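The counts of members called in wild type and between genotypes with CDDO-Im stayed within 5 to 6 and 4 to 5 under all alternatives. In Nrf2 null livers the count of 2 was 1 with every probe set tested, 1 with the replicate block and 0 at an adjusted p under 0.01. It was 3 with the compared arrays alone (Gstm2 added), 3 without both arrays with acinar transcripts (Gstm7 added by its main probe set), and 0 to 2 with single arrays left out. With vehicle the count of 0 was 2 with array weights and 1 without both arrays with acinar transcripts, and 0 to 2 with single arrays left out. The interaction count of 2 was 4 with array weights, 4 without both arrays with acinar transcripts, and 2 to 4 with single arrays left out. Of 693 recomputed member differences 641 kept their direction and side of the threshold, 20 changed sign without being called before or after, 12 lost the call, 20 gained it and 0 called differences reversed. The sign changes were those of Gstm5 in both genotypes, of Gstm2, Gstm4 and Gstm6 between genotypes with vehicle, and of Gstm5 and Gstm7 in the interaction. The cause was not tested. Over all genes the count called ranged from 104 to 2023 around 332 in wild type, 97 to 1897 around 1074 in null livers, 16 to 1477 around 71 with vehicle, 123 to 464 around 263 with CDDO-Im and 15 to 89 around 25 for the interaction. Pairing of arrays by replicate number was not seen. Of 18 same-numbered pairs 4 deviated together with a correlation over 0.1, and 2 of 12 arrays correlated best with their own number. With groups of 3 arrays such a check cannot exclude pairing. Beyond the null count the block changed no count of members called.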
